A study of Mus musculus with 2 samples.

Results

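The cytochrome P450 genes of families 2, 3 and 4 were described in small intestine of naive mice, in 1 library per genotype. Members were all genes of the deposited table whose symbol begins with Cyp, one of these family numbers, a subfamily letter and a number, which gave 65 of 27275 genes in 18 subfamilies. The control library, titled WT, carries the genotype label Spib+Villin-Cre. The KO library, titled KO, carries Spibfl/flVillin-Cre, so that both groups carry Cre under the promoter of villin, a gene of gut epithelium, and a floxed Spib is its target in the KO library only. Spib encodes an ETS transcription factor of M cells and B cells. The tissue was taken as proximal small intestine per the design text, and the sources used here do not give age, sex, strain or whether animals were pooled. No genotype has a second library, so that no test or p-value is given, and each difference below lies between these 2 libraries.

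Cytochrome P450 enzymes are heme proteins of the endoplasmic reticulum and mitochondria that insert an oxygen atom into lipids, hormones, drugs and plant compounds. The microsomal forms, to which families 2, 3 and 4 belong, receive their electrons from P450 oxidoreductase. Families 2 and 3 hold the main oxidases of foreign compounds, which the nuclear receptors PXR and CAR can induce, and also the epoxygenases of arachidonic acid. Family 4 hydroxylates the ends of fatty acids, eicosanoids and the side chains of fat-soluble vitamins. In the small intestine these enzymes act in absorptive enterocytes, where they meet food compounds and oral drugs first.

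All values are FPKM, the reads of a gene scaled to its length and to the reads of its library, so that levels can be compared between genes. A gene was compared when it reached 1 FPKM in at least 1 library. A log2 ratio is log2((knockout FPKM + 1) / (wild-type FPKM + 1)), and it decided which genes count as at least 2-fold or 1.5-fold apart. Folds are plain ratios of FPKM, unless they are said to be by recovered reads. The interval after a fold is an exact Clopper-Pearson interval at 95% from the recovered reads, which covers counting error only, treats each read as an independent molecule and leaves out all variation between mice.

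The enzymes share the loop that holds the heme, in which a cysteine binds the iron. In the reading frame of the longest complete coding sequence of each gene in GENCODE M21 (build GRCm38), the signature of phenylalanine, glycine, cysteine and glycine at their usual spacing was found in 24 of the 26 compared members, 54 to 61 codons before the end. It was not found in Cyp2b10 and Cyp2s1 as annotated there. The 30 bases of the signature are shown for 11 members that the results turn on, to let their likeness be seen, 5′ to 3′ with the codon of the heme-binding cysteine in capitals.
Cyp2c29: ttttcaacaggaaaacggattTGTgctgga
Cyp2c55: ttctcaataggaaagcgaatgTGCgtggga
Cyp2c65: ttctcaacaggaaaacggattTGTgtggga
Cyp2c66: ttctcaacaggaaaacggattTGTgtggga
Cyp2c68: ttctcagcaggaaaacggattTGTgtggga
Cyp2j6: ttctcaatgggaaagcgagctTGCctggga
Cyp3a11: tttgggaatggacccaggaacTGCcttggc
Cyp3a13: tttgggagtggaccaaggaacTGCattggc
Cyp3a44: tttggaattggacccaggaacTGCattggc
Cyp4f14: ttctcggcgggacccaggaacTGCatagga
Cyp4f16: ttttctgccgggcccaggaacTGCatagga
The signature of Cyp2c65 and that of Cyp2c66 were the same, and over the whole coding sequence this pair was 96.3% identical, the highest value among compared members. Cyp3a11 and Cyp3a44 followed with 94.9%, while Cyp2j6 and Cyp2j9 had 83.1%. Close copies matter for the values, because reads of a shared stretch can be given to either gene. Of all 50-base stretches in the transcripts of Cyp2c66, 19.5% also occurred in Cyp2c65, and for Cyp2c68 35.6% occurred in Cyp2c40. For Cyp3a25 25.2% occurred in Cyp3a59, for Cyp4f16 16.3% in Cyp4f37, and for Cyp3a44 7.0% in Cyp3a11. Cyp3a44 shared 26.5% with any other gene, with 11.5% in Cyp3a41a and 10.6% in Cyp3a63-ps. More than 10% of the stretches were shared with any other gene in 7 of the 26 members compared, and with stretches of 100 bases in 1.

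The P450 genes made up a like part of both libraries, and 7 genes, 5 of family 2 and 1 each of families 3 and 4, were at least 1.5-fold higher in the KO library. All members together summed to 1437 FPKM in the WT library and 1539 FPKM in the KO library, a ratio of 1.07. Of the 65 members, 26 were compared, and the other 39 stayed below 1 FPKM in both libraries. Among the 26, 3 were at least 2-fold higher in the KO library, against a background of 1.61% of the 13479 genes compared, 0 were 2-fold lower, against 2.51%, and in either direction the background was 4.12%. At least 1.5-fold higher were 7 members, or 26.9%, against 3.56% of all genes, and 0 were 1.5-fold lower, against 5.69%. In either direction that background was 9.25%. The 3 genes past 2-fold were Cyp2c66, Cyp2c29 and Cyp3a44, and Cyp4f16, Cyp2j6, Cyp2e1 and Cyp2c65 lay between 1.5-fold and 2-fold on this scale. A log2 ratio above 0 was found for 19 of the 26, or 73.1%, and for 41.3% of all genes. The median log2 ratio of the members was 0.12, and that of all genes was -0.05. By family, the ratio was above 0 in 12 of 14 members of family 2, in 3 of 4 of family 3 and in 4 of 8 of family 4. The counts of members past 2-fold and 1.5-fold were 1 and 4 under a pseudocount of 5, against backgrounds of 0.453% and 1.25%. Without the 7 members that share many stretches with another gene they were 1 and 3 of 19. By plain ratios, without a pseudocount, Cyp2e1 was also past 2-fold, and Cyp2c55 and Cyp2j9 were also past 1.5-fold.

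**Figure D1:**
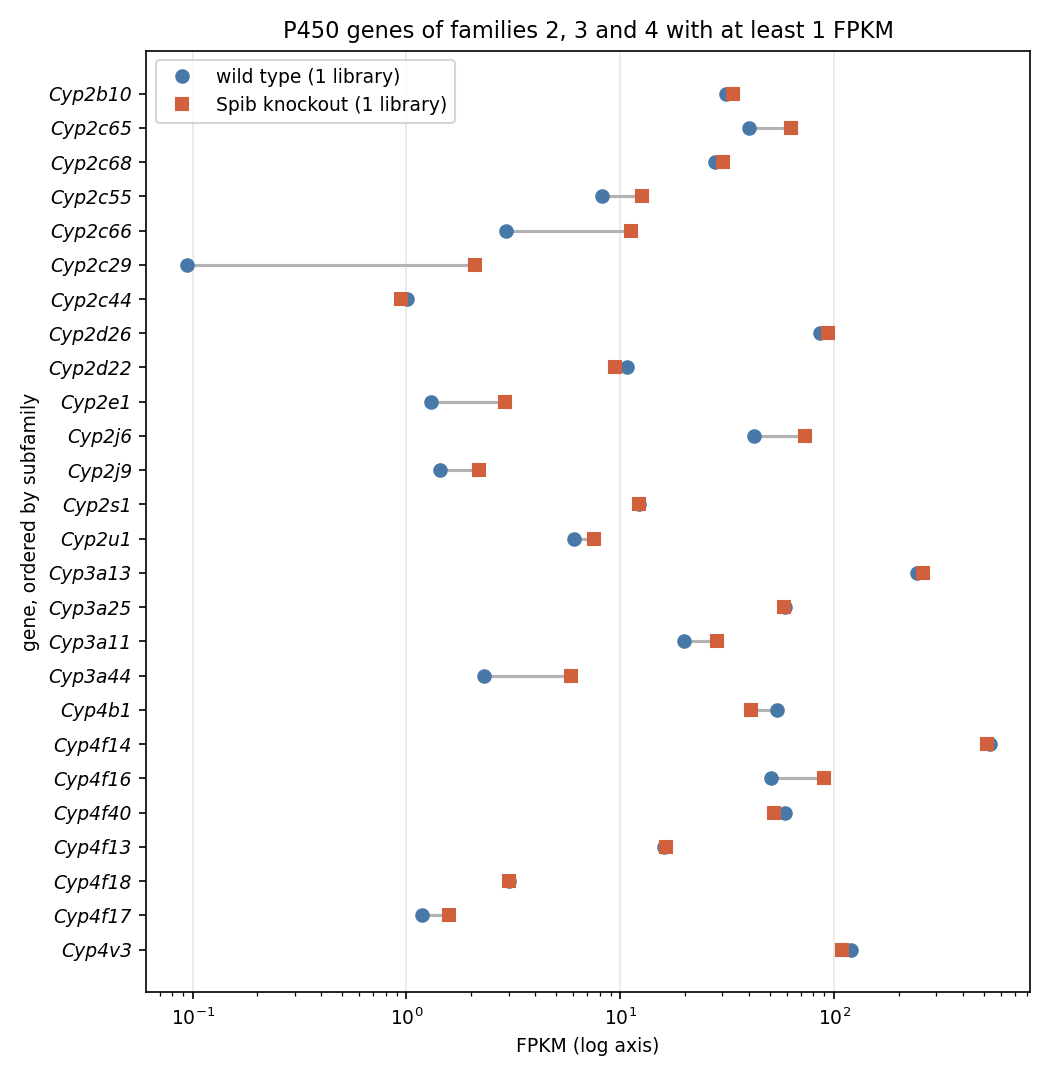
FPKM (log axis) of the 26 P450 genes with at least 1 FPKM, ordered by subfamily, with a circle for the WT library and a square for the KO library (1 library each). Most pairs of points lie close together, and Cyp2c29, Cyp2c66 and Cyp3a44 have the longest gaps, with the KO library on the right.

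A few genes carried most of the P450 signal. Cyp4f14, whose enzyme hydroxylates leukotriene B4 and the side chain of vitamin E, had 533 FPKM in the WT library and 517 FPKM in the KO library. It was the 79th and the 81st most abundant gene of all, and held 37.1% and 33.6% of the family's FPKM. Cyp3a13, the main intestinal member of the drug-oxidising subfamily 3A in mice, had 244 and 259 FPKM. Cyp4v3, the mouse counterpart of the fatty acid hydroxylase CYP4V2, had 120.0 and 109 FPKM, and Cyp2d26 had 86.0 and 93.7 FPKM. These 4 abundant genes differed little. Their folds were 1.06 higher for Cyp3a13 (1.04 to 1.09) and 1.09 higher for Cyp2d26 (1.03 to 1.15), and 1.03 lower for Cyp4f14 (1.012 to 1.05) and 1.10 lower for Cyp4v3 (1.07 to 1.14).

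The Cyp2c genes showed the widest spread. Subfamily 2C, which includes the epoxygenases of arachidonic acid, had 13 members in the table, of which 6 were compared and 3 were listed at 0 in both libraries. The sum over the subfamily was 80.2 FPKM in the WT library and 120.3 FPKM in the KO library, a log2 fold of 0.58. By recovered reads the sum was 2613 against 4052, 1.53-fold higher with an interval of 1.46 to 1.61. The difference lay in genes at one end of the Cyp2c cluster of chromosome 19. Cyp2c55, Cyp2c65, Cyp2c66 and Cyp2c29 lie there side by side on the plus strand, over 324 kb (chr19:39007019-39330713, build mm10), with the pseudogene Cyp2c53-ps between the last pair, where it overlaps the start of Cyp2c29 in GENCODE M21.

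Cyp2c65, a gene of the gastrointestinal tract and the most abundant of the subfamily, had 40.1 FPKM in the WT library and 62.8 FPKM in the KO library, 1.57-fold higher (1.46 to 1.68). Its neighbour and closest copy Cyp2c66 had 2.92 and 11.2 FPKM, 3.83-fold higher (3.06 to 4.82), from 99 and 384 reads. The fold of Cyp2c66 thus lay above that of Cyp2c65, with intervals that do not overlap. Because the genes share stretches their sum is the safer value. It was 43.0 FPKM against 74.0 FPKM, 1.72-fold higher, with an interval of 1.61 to 1.84 by reads. Cyp2c55, which is induced through PXR and CAR and hydroxylates arachidonic acid, had 8.17 and 12.7 FPKM, 1.55-fold higher (1.33 to 1.81). Its log2 ratio of 0.57 missed the limit of 1.5-fold narrowly. Cyp2c29, an epoxygenase best known from liver, was nearly silent in the WT library at 0.0937 FPKM, from 5 reads. It reached 2.09 FPKM in the KO library, from 113 reads, 22.3-fold higher with a wide interval of 9.28 to 70.0. Only 4.1% of its 50-base stretches occurred in Cyp2c53-ps, which was listed at 0 in both libraries.

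The rest of the cluster did not share this difference in size. Cyp2c68 had 27.8 and 30.3 FPKM, 1.09-fold higher (0.991 to 1.20), and together with its close copies Cyp2c40 and Cyp2c67 it summed to 27.9 and 30.5 FPKM. Cyp2c38 and Cyp2c40 had 0 reads in the WT library and 2 and 1 reads in the KO library, Cyp2c70 had 1 and 3, and Cyp2c50 and Cyp2c54 were listed at 0. Cyp2c44, an epoxygenase that lies apart from the cluster and is named Cyp2c23 in GENCODE M21, had 1.011 and 0.945 FPKM. The 9 members outside the 4-gene segment summed to 29.0 FPKM and 31.6 FPKM, a ratio of 1.09, and the 4 genes of the segment to 51.3 and 88.8 FPKM, a ratio of 1.73. The nearest compared protein-coding gene before the segment, Hells, 36.0 kb away, had 5.19 and 5.27 FPKM. After the segment the nearest one that is no P450 gene, Pdlim1, 890 kb away, had 41.0 and 42.3 FPKM. The difference thus did not extend to either of these flanking genes.

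**Figure D2:**
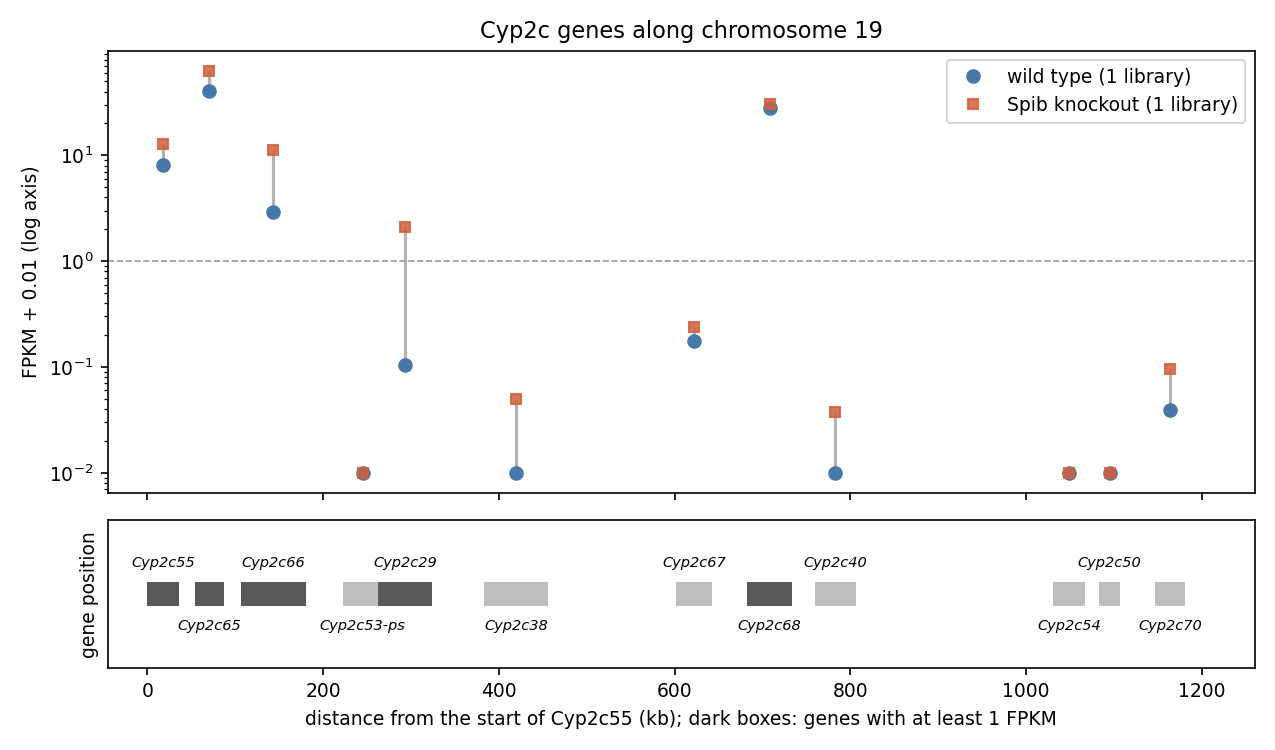
Upper panel, FPKM + 0.01 (log axis) of 12 Cyp2c genes at their middle, with circles for the wild-type and squares for the KO library (1 library each) and a dashed line at 1 FPKM; lower panel, gene positions in kb from the start of Cyp2c55, with genes of at least 1 FPKM dark. The 4 dark genes on the left are all higher in the KO library, and the points of Cyp2c68 almost coincide.

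The promoters of these 4 genes are shown because the genes lay together and were higher together. Each window is 300 bases from RefSeq (build GRCm38.p6), from 250 bases before the RefSeq start, 5′ to 3′ on the plus strand. The RefSeq start of Cyp2c29 lies downstream of its GENCODE start and beyond the end of Cyp2c53-ps. Capitals mark matches on either strand to TATAAA, to the nuclear receptor half-sites AGGTCA and AGTTCA, and to CAAAGTCCA, letters bound by the enterocyte and liver factor HNF4.
Cyp2c55 (chr19:39006769-39007068, plus strand): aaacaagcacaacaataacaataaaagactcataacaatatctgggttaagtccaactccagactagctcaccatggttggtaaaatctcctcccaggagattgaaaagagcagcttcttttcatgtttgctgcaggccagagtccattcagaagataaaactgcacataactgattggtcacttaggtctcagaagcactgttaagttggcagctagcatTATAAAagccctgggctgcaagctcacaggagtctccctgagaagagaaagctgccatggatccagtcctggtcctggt
Cyp2c65 (chr19:39060756-39061055, plus strand): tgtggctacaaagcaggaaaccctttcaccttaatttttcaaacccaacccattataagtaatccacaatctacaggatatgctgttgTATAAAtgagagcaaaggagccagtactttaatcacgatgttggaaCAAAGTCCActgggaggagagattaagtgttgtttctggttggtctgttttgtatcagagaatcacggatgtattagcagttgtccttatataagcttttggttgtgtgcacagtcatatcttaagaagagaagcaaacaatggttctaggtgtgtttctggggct
Cyp2c66 (chr19:39113648-39113947, plus strand): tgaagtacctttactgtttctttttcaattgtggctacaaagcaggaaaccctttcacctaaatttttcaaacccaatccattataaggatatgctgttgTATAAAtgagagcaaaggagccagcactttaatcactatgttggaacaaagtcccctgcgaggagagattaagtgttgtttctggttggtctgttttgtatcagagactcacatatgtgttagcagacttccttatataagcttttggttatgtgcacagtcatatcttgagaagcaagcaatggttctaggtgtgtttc
Cyp2c29 (chr19:39286835-39287134, plus strand): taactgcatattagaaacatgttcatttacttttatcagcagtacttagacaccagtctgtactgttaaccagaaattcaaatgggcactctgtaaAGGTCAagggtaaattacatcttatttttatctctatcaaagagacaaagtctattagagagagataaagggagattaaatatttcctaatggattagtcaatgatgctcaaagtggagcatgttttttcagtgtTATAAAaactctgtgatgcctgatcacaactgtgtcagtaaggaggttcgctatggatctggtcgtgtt
The windows of Cyp2c65 and Cyp2c66 were 94.5% identical over 271 aligned bases, and the other pairs lay between 63.6% and 66.5%. CAAAGTCCA was found in Cyp2c65, its first base at position -116 with the start base as 0, and not in the window of Cyp2c66. TATAAA began at -29 in Cyp2c55, -19 in Cyp2c29, -162 in Cyp2c65 and -150 in Cyp2c66, and AGGTCA at -154 in Cyp2c29.

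RefSeq windows were found for 22 of the 26 compared members. CAAAGTCCA was found in 3 of the 22, Cyp2c65, Cyp2c68 and Cyp3a11, and in 0.475% of all 32851 windows. Only the first of these is in the 4-gene segment, and the other 2 had folds of 1.09 and 1.44. TATAAA was found in 8 of 22, or 36.4%, against 13.6% of all windows, AGGTCA in 4 against 16.3%, and AGTTCA in 3 against 14.0%. Also searched on both strands were AGATAA of GATA factors, in 5 against 11.2%, TTTATNG of CDX factors, in 3 against 10.9%, GTTAAT of HNF1, in 4 against 7.10%, CCAAT, in 14 against 37.4%, and GAGGAAGT, the box bound by PU.1 and Spi-B, in 2 against 3.20%. The 2 windows with GAGGAAGT were those of Cyp4f16 and Cyp4v3. A member counted when any of its windows matched, and some members have several, whereas the shares over all are of single windows. Matches of different motifs may overlap, the windows of close copies are not independent, and a match describes letters and not binding.

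In subfamily 2J the abundant gene was higher. Cyp2j6, an arachidonic acid epoxygenase that is the main member of its subfamily in mouse intestine, had 42.0 FPKM in the WT library and 73.2 FPKM in the KO library, 1.74-fold higher (1.66 to 1.83), from 2641 and 4657 reads. It shares 0.422% of its 50-base stretches with other genes. Cyp2j9 had 1.43 and 2.19 FPKM, 1.53-fold higher (1.16 to 2.05), with a log2 ratio of 0.39, under the limit of 1.5-fold. The 8 members measured summed to 44.1 and 75.5 FPKM, 1.71-fold higher, nearly all of it Cyp2j6. The low members Cyp2j5, Cyp2j11, Cyp2j13 and Cyp2j14-ps had 6, 7, 6 and 1 reads in the WT library and 2, 1, 3 and 0 in the KO library. Cyp2j8 had 2 in each, and Cyp2j12 was listed at 0.

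Cyp2e1, which oxidises ethanol and acetone, had 1.30 and 2.89 FPKM, 2.22-fold higher (1.57 to 3.17). Its log2 ratio with the pseudocount was 0.75, short of 2-fold. The remaining genes of family 2 lay closer together. Cyp2b10, the classical target of CAR, had 31.3 and 33.5 FPKM, 1.07-fold higher (0.988 to 1.16). Cyp2s1, an epithelial enzyme induced through the aryl hydrocarbon receptor, had 12.2 and 12.3 FPKM. Cyp2u1, a hydroxylase of long-chain fatty acids, had 6.05 and 7.54 FPKM, 1.246-fold higher (1.11 to 1.395). In subfamily 2D, whose 9 members summed to 97.5 and 103.9 FPKM, Cyp2d22 had 10.7 and 9.40 FPKM, 1.14-fold lower (1.004 to 1.30). The 2D sum was close to the value of Cyp2d26 alone, given above, and its other 7 members stayed below 1 FPKM. Cyp2r1, which starts the activation of vitamin D, was below 1 FPKM, with 25 and 17 reads.

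In subfamily 3A the abundant genes were alike and 2 less abundant ones were higher in the KO library. Cyp3a25 had 59.0 and 58.0 FPKM, 1.02-fold lower (0.958 to 1.08), beside the values of Cyp3a13 given above. Cyp3a11, the best known target of PXR in mice, had 19.8 and 28.4 FPKM, 1.44-fold higher (1.35 to 1.53). Cyp3a44, which lies next to it on chromosome 5, had 2.31 and 5.89 FPKM, 2.55-fold higher (1.96 to 3.35), from 79 and 204 reads. The copies Cyp3a16 and Cyp3a41a, which share stretches with both, were listed at 0 in both libraries. Cyp3a11 and Cyp3a44 summed to 22.1 and 34.3 FPKM, 1.55-fold higher, and by recovered reads the sum was 1.49-fold higher (1.40 to 1.58). All 8 members of subfamily 3A summed to 325 and 351 FPKM, a ratio of 1.08, because Cyp3a13 and Cyp3a25 made up most of the sum.

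**Figure D3:**
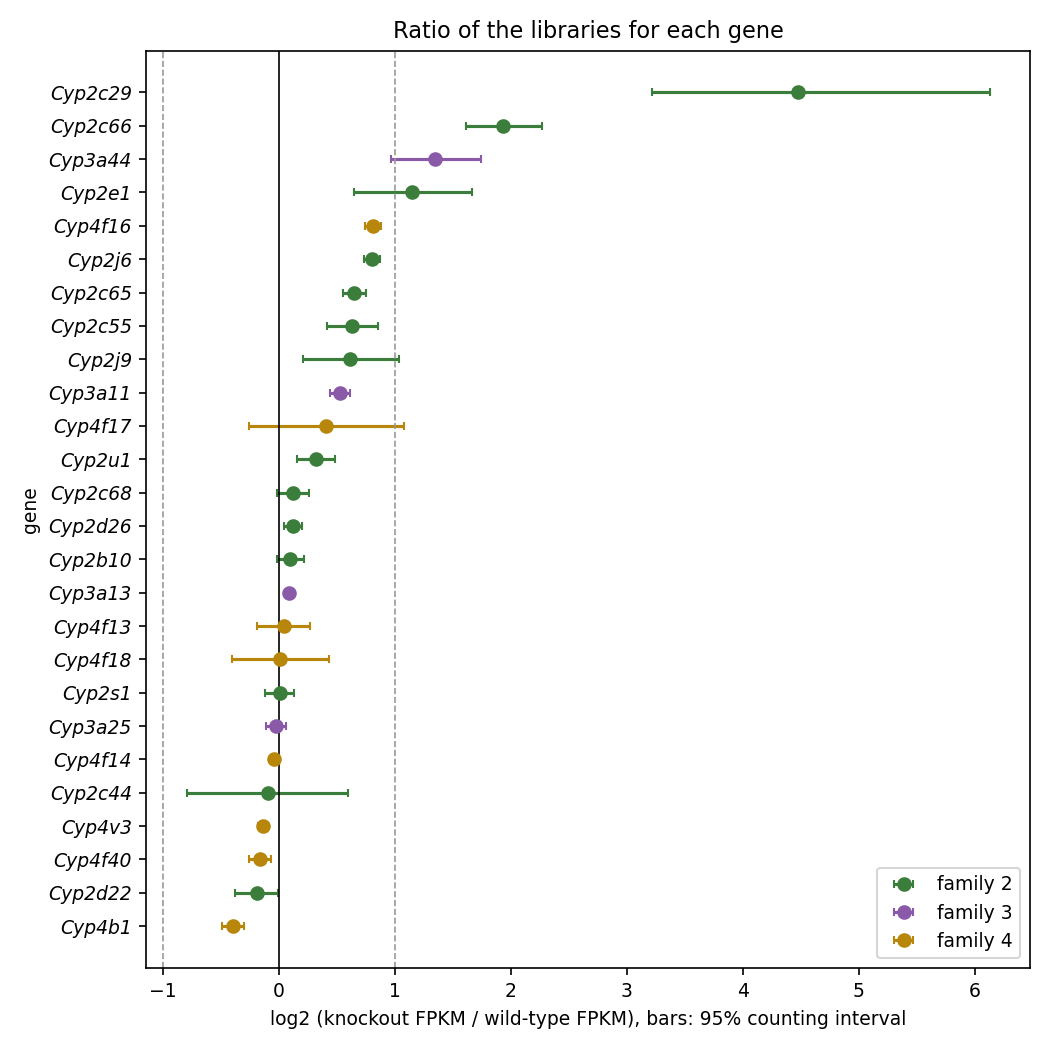
Log2 of the plain ratio of knockout to wild-type FPKM for the 26 compared genes, coloured by family, with 95% counting intervals as bars (1 library per genotype, so the bars leave out variation between mice) and dashed lines at 2-fold. Cyp2c29 stands highest at 22.3-fold with the widest bar, 4 genes lie beyond the right dashed line, and none lies beyond the left one.

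Family 4 differed in single genes and not in its sum, 837 FPKM in the WT library and 831 FPKM in the KO library. Cyp4f16, a member of the leukotriene-hydroxylating subfamily 4F on chromosome 17, had 50.8 and 89.2 FPKM, 1.76-fold higher (1.67 to 1.84). Cyp4f37, with which it shares stretches, was listed at 0 in both libraries. Other 4F genes of chromosome 17 had various ratios. Cyp4f40 had 58.9 and 52.5 FPKM, 1.12-fold lower (1.05 to 1.20), Cyp4f13 had 15.9 and 16.4 FPKM, and Cyp4f17 had 1.19 and 1.57 FPKM, 1.33-fold higher with an interval of 0.837 to 2.11 that includes the fold of Cyp4f16. Cyp4f15, below 1 FPKM, had 2 and 12 reads, 5.92-fold higher (1.32 to 54.5). The 10 members of 4F summed to 663 and 681 FPKM, a ratio of 1.03. Without Cyp4f14 and the pseudogene the log2 fold of the 4F sum was 0.33, against 0.04 with them.

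Cyp4b1, which hydroxylates fatty acids and activates some plant toxins, had the lowest ratio of the compared genes. It had 53.8 FPKM in the WT library and 40.8 FPKM in the KO library, 1.32-fold lower (1.23 to 1.41). Cyp4f18, the leukotriene B4 hydroxylase of neutrophils and other leukocytes, had 3.001 and 3.02 FPKM, 1.007-fold higher (0.753 to 1.35). The neutrophil markers in the table, 5 genes, were all below 1 FPKM and summed to 1.63 and 0.589 FPKM. The 4A genes, classical targets of the fatty acid receptor PPAR-alpha in liver, were close to silent. Cyp4a10 had 0 and 3 reads, Cyp4a29 had 2 and 0, Cyp4a32 had 7 and 1, and Cyp4a31 was listed at 0. A library with 0 reads of a transcript of 1 kb could still hold up to 0.172 FPKM in the wild type and 0.170 FPKM in the knockout, the value of 3 reads.

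**Figure D4:**
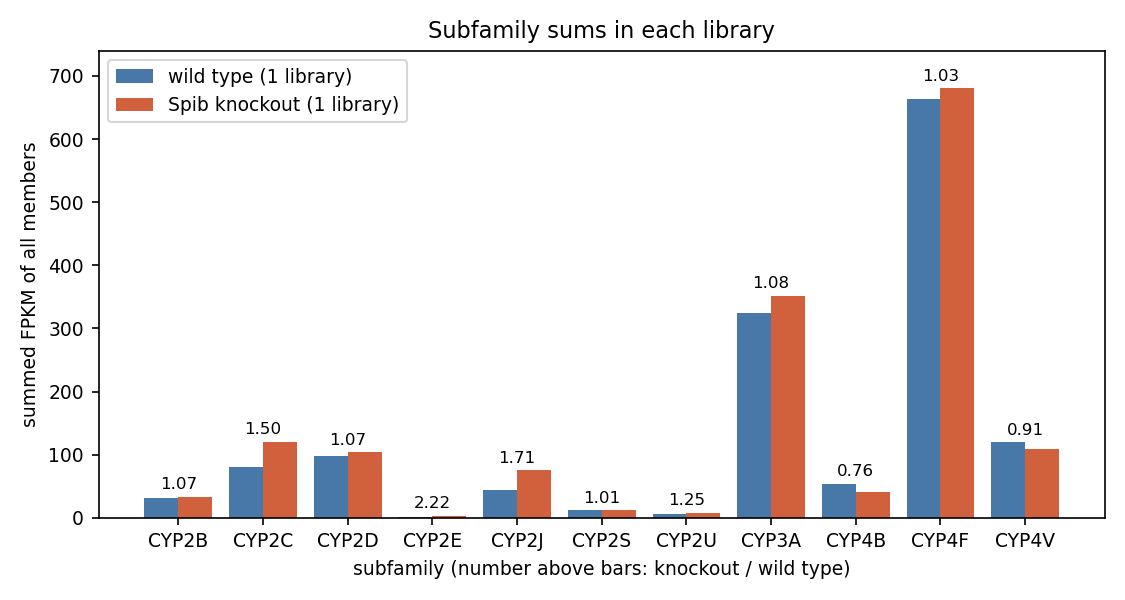
Summed FPKM of all members of each of the 11 subfamilies with a compared gene, in blue for the wild-type and in red for the KO library (1 library each), with the ratio of knockout to wild type above each pair. The ratio is 2.22 for the low pair of CYP2E, 1.71 for CYP2J, and 1.08 and 1.03 for the tall pairs of CYP3A and CYP4F. The pair of CYP2C differs by a log2 fold of 0.58.

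Of the 39 members below 1 FPKM in both libraries, 10 were listed at 0 in both libraries, among them Cyp2a5 and Cyp2a12, and 29 had at least 1 read. The highest value among them was 0.789 FPKM, that of the pseudogene Cyp4f41-ps. GENCODE M21 has 42 further genes whose symbols fit the same pattern, 18 of them protein-coding, and these were not analysed here.

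Other genes of the pathway were taken as lists. The electron donor P450 oxidoreductase, Por, had 31.8 FPKM in the WT library and 47.8 FPKM in the KO library, 1.503-fold higher (1.42 to 1.59), with a log2 ratio of 0.57. In the list of 9 electron donors and membrane partners none was past 1.5-fold in either direction, beside 9.25% of all genes. The median log2 ratio was 0.05. With the median of all genes set to 0, 1 of these 9 genes was past 1.5-fold higher, beside the share given with that setting below. None was past 1.5-fold among the 12 genes of heme synthesis and breakdown, whose median was 0.01. Of 22 compared receptors and cofactors, none was past 1.5-fold and the median was -0.03. At a share of 9.25%, lists this short would hold few such genes, so counts of 0 differ little from the background. The PXR gene Nr1i2 had 48.8 and 45.0 FPKM, and Ppara had 10.9 and 12.1 FPKM. The CAR gene Nr1i3 was below 1 FPKM, with 62 and 74 reads. Of 19 enterocyte and hepatic transcription factors 1 was 1.5-fold lower, Cebpb, beside 5.69% of all genes. Hnf4a had 203 and 198 FPKM.

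Known targets of the same receptors outside the P450 genes leaned to higher values. Of 30 compared PXR and CAR targets, 2 were at least 2-fold higher, beside 1.61% of all genes, 0 were 2-fold lower, beside 2.51%, and the median log2 ratio was 0.15 beside -0.05 for all genes. Those past 2-fold were the glutathione transferase Gstm3, with 16.1 and 60.4 FPKM, and the carboxylesterase Ces2a, with 93.8 and 196 FPKM. At least 1.5-fold higher were 5 of the 30, beside 3.56% of all genes, and 1 was 1.5-fold lower, beside 5.69%. The other 3 higher ones were the carboxylesterases Ces2b and Ces2c and the glucuronosyltransferase Ugt1a7c, and the lower one was Aldh1a7. With the median of all genes set to 0 these counts became 8 and 0, beside 4.04% and 5.15%, and a pseudocount of 5 gave 3 and 0, beside 1.25% and 2.06%. Por is also in this list. The median log2 ratio of the 28 compared PPAR-alpha targets was 0.27. Of the 8 compared genes for epoxide hydrolases and products of P450 fatty acid oxidation, 1 was 1.5-fold higher, beside 3.56% of all genes. It was the fatty acid binding protein Fabp1, which also stands in the PPAR-alpha list. The median of these 8 genes was 0.02. Among 9 compared P450 genes of other families, 1 was 2-fold higher, Cyp1a1 with 1.63 and 6.34 FPKM, beside 1.61% of all genes, and 0 were 2-fold lower, beside 2.51%. Past 1.5-fold lower was 1 of the 9, Cyp26b1 with 3.81 and 1.77 FPKM, beside 5.69%, and the median was -0.06.

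**Figure D5:**
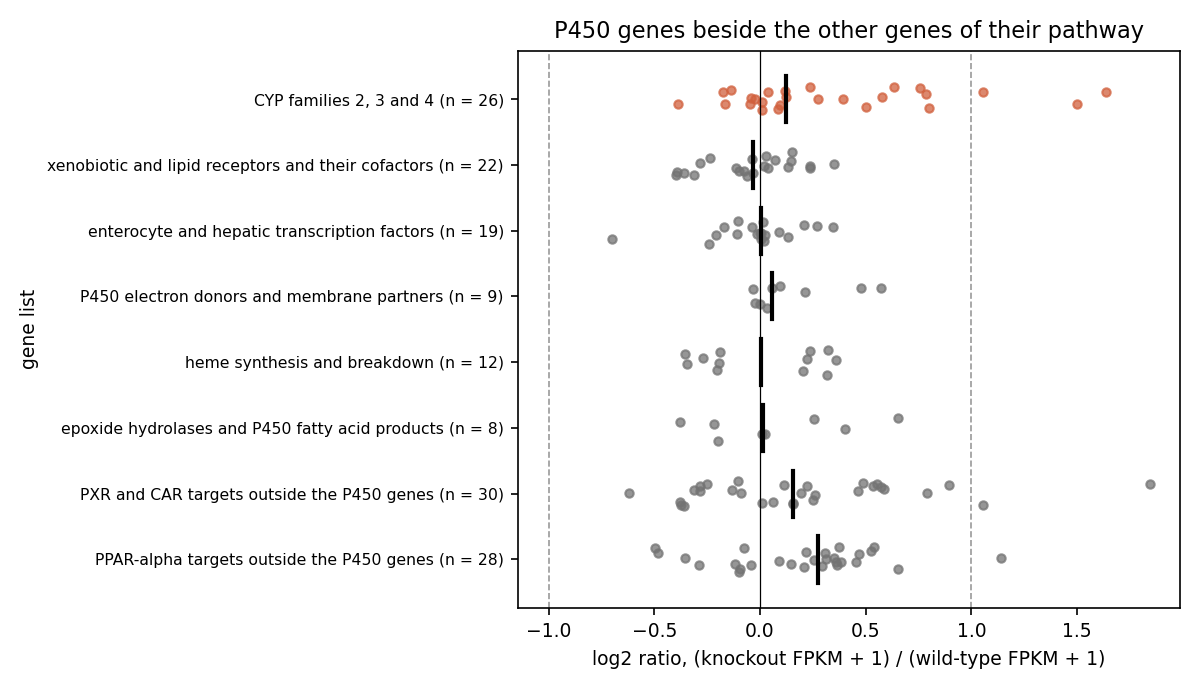
Log2 ratios, (knockout FPKM + 1) / (wild-type FPKM + 1), of the compared genes of the P450 families 2, 3 and 4 (top row) and of 7 lists of the same pathway, 1 point per gene and a bar at the median. The points of the receptor, electron donor and heme lists stay within the dashed lines at 2-fold, while 3 P450 genes and 2 PXR and CAR targets lie to the right of them. Of all genes compared, 4.12% were past 2-fold in either direction.

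Features of the whole libraries moved beside these values. Depth was similar, with 17425640 and 17658566 reads implied by the values, and Spib had 4.94 FPKM in the WT library and 0.592 FPKM in the KO library. Although the tissue is described as proximal, genes of the distal small intestine were abundant in both libraries, with Fabp6 at 2030.2 and 1735 FPKM and Slc10a2 at 92.6 and 92.1 FPKM. All 8 compared distal markers had log2 ratios below 0, and their sum was 3373 FPKM against 2697 FPKM. Of all genes compared, 41.3% had a log2 ratio above 0. Of 6 compared proximal markers 5 had ratios above 0, although Slc40a1 was past 2-fold lower. The sum was 762 against 1073 FPKM, most of it Fabp1, also an enterocyte marker here, with 486 and 764 FPKM. All 14 enterocyte markers were within 2-fold, where 4.12% of all genes were past it, and 8 of these markers had ratios above 0. Their median log2 ratio was 0.10, although their sum was 16276 against 14955 FPKM. Tuft cell markers summed to 11.8 against 64.6 FPKM, with 7 of 7 compared genes at least 2-fold higher, beside 1.61% of all genes. At least 2-fold higher were also 2 of 7 goblet cell markers, Clca1 and Spink4, and 1 of 5 Paneth cell markers, Ang4 with 809 and 4221 FPKM. At least 2-fold lower were 1 of 7 macrophage and dendritic cell, 1 of 5 acinar cell and 2 of 6 B cell markers. So were 4 of 6 plasma cell and 2 of 7 T cell markers, beside 2.51% of all genes. Of 7 hepatocyte markers 3 were compared. Of these 1 was 1.5-fold higher, Apoh with 0.576 and 1.78 FPKM, beside 3.56% of all genes, and 0 were lower, beside 5.69%. Their sum of 174 and 197 FPKM was nearly all Cps1, with 171 and 194 FPKM, which enterocytes also express, while Alb had 0.123 and 0 FPKM and Ahsg was listed at 0 in both libraries. In whole tissue, fewer cells of a type and less RNA per cell cannot be told apart. The part of the region along the gut and of the cell mixture in the P450 differences was not tested.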

How the data were processed

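The 2 libraries were made from total RNA by SMART-Seq II amplification of cDNA, per the labels' protocols. The authors deposited 1 table of FPKM values for 27275 genes, in a column for each library, and each was matched to a library by its title. Per the submitters' processing notes, which give no roles, Bowtie2 2.2.3, HTSeq 0.6.0 and the build mm10 belong to the processing. The sources used here do not give the annotation, the strand setting or how reads of near-identical copies were divided, so values of close copies and of overlapping genes are uncertain.

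Coordinates and exon lengths came from GENCODE M21 (GRCm38, the same assembly as mm10), which held 27222 of the genes. FPKM times exon length was a whole number of reads, within 0.01, for 90.6% of values above 0 in the WT library and 90.7% in the KO library. For 15 of the members, where it was not, reads were taken from the length of an annotated transcript in 3 and from the smallest whole reads in 12, so that their intervals can be too wide. Reads served for intervals, floors, printed read counts and sums given by reads, and all other folds are ratios of FPKM. Genes with at least 1 FPKM in at least 1 library were compared, with a pseudocount of 1. The recovery of reads by exon length, the fold counts and the intervals were tested on simulated data. The recovery of reads by other lengths and the sequence steps were not tested in this way. Software was Python 3.11.15, numpy 2.4.6, pandas 2.3.3 and scipy 1.17.1.

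The named genes are members of at least 5 FPKM or past 1.5-fold, list genes past 2-fold, and Nr1i2, Nr1i3, Ppara, Hnf4a and Por. Other names were chosen after their values were seen. The members and lists were chosen with earlier results of these data known. Alternatives were other pseudocounts, filters and scalings, and sums without the leading member. A result on single PPAR-alpha targets is not reported here.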

Additional observations from a re-analysis of the deposited data

How the results depend on the processing

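With 1 library per genotype no replicate could be left out, and no paired analysis was possible because each genotype has 1 library. The counts of members at least 2-fold and 1.5-fold higher were 3 and 7. A pseudocount of 5 gave 1 and 4. Without the members that share over 10% of their 50-base stretches, an alternative chosen after seeing the data, they were 1 and 3. In the other direction, by plain ratios without a pseudocount, Cyp2e1 at 2.22 was also past 2-fold. By the same ratios Cyp2c55 at 1.55 and Cyp2j9 at 1.53 were also past 1.5-fold. No alternative run gave a member 1.5-fold lower. The median log2 ratio of the members ranged from 0.01 without a filter on low values to 0.18 with the median of all genes set to 0. Setting that median to 0 raised log2 ratios by up to 0.06, and rescaling both libraries to the same sum lowered them by 0.03. The ratios of Cyp3a25, Cyp4f14, Cyp2s1 and Cyp4f18, all near 1, changed sign under some scaling. The log2 fold of the 3A sum went from 0.11 to 0.17 with the median set to 0, 0.17 with trimmed means and 0.18 without pseudogenes and the most abundant member. That of the 4F sum went from 0.04 to 0.10, 0.0944 and 0.33 in the same order, and to 0.00718 when rescaled to the same sum. That of the 4V sum went from -0.14 to -0.0785 with the median set to 0 and -0.0794 with trimmed means. Without pseudogenes and the most abundant member the 2J sum went from 0.78 to 0.30 and the 2D sum from 0.09 to -0.18. The cause was not tested. Depth limits members under 1 FPKM, most of which rest on few reads.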
